A study of Rattus norvegicus with 6 samples.

Results

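The small heat shock proteins are chaperones of low molecular mass, and 7 of their genes were followed in cultured rat heart muscle cells under stretch, under phenylephrine and without treatment. The genes are Hspb1, Cryab, Hspb8, Hspb6, Hspb7, Hspb2 and Hspb3. They were taken as every probe set whose symbol in the platform annotation is that of a member, which gave 9 of the 31042 probe sets tested and 7 of the 14217 named genes. Hspb7 and Hspb8 have 2 probe sets each and the other genes 1 each, and the brighter probe set stands for its gene. All 9 probe sets were tested and no filter on low values was applied.

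Small heat shock proteins share a conserved α-crystallin domain, need no ATP, and hold unfolding proteins in a state from which ATP-driven chaperones such as Hsp70 can refold them or pass them to degradation. Heart and skeletal muscle are rich in them, where they bind desmin, actin, titin and filamin filaments that carry mechanical load. Several are made at a steady high level in muscle, and some are also induced by heat shock factor when proteins unfold.

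Gene expression was measured on 6 single-channel Affymetrix arrays, 2 per group. All cells were myocytes from hearts of Wistar rats 1 to 2 days old, separated from fibroblasts on a Percoll gradient and cultured in serum. The stretch group was seeded on a silicone membrane coated with collagen, kept there for 36 h, deprived of serum for 24 h and then stretched biaxially to 112% for 24 h. The phenylephrine group received 50 µmol/l of this α1-adrenergic agonist, a standard chemical stimulus of myocyte growth. The treatment text of these samples lists endothelin-1 and angiotensin II as well, but their titles and descriptions name phenylephrine alone. The control group had no treatment. For the phenylephrine and control cells no growth surface, serum-free period or treatment time is stated in the labels, so a difference in handling and a difference in stimulus cannot be told apart. RNA of several cell preparations was pooled, and separate cultures for the 2 arrays of each group are not recorded. The p-values thus reflect the spread among these 6 arrays alone, which may be technical.

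Values are log2 signals as deposited, where 1 unit is a 2-fold difference. Array medians lay between 8.30 and 8.33, but the interquartile range ran from 1.70 on phenylephrine replicate 2 to 1.92 on stretch replicate 1. Replicate 1 had the wider range in each group: 1.91 against 1.82 for control, 1.89 against 1.70 for phenylephrine and 1.92 against 1.80 for stretch. Phenylephrine replicate 2 also had the lowest median of the spike-in controls, at 9.14 against 9.88 to 10.1 on the other 5 arrays. Probe sets of the 7 genes were bright, with means at the 91.5th to 99.9th percentile of all probe sets, where arrays can understate fold changes. Probe sets differ in how brightly they read the same amount of RNA, so a signal or its percentile places a probe set and does not rank genes by their RNA. Differences below are from 1 limma fit to all 6 arrays, with the standard error (SE), and adjusted p-values are Benjamini-Hochberg values over all 31042 probe sets with a threshold of 0.05.

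The chemical growth stimulus was read by setting phenylephrine arrays against control arrays. Hspb3 and Hspb6 rose, Hspb3 2.22-fold and Hspb6 1.81-fold. Thus 2 of the 7 genes rose and 0 fell, where 1.73% of all probe sets rose and 1.87% fell in limma. The other 5 genes had positive differences between 0.18 and 0.40 that did not pass the threshold. The median difference of the 7 genes was 0.35, against 0.01 over all probe sets, most of which were dimmer. After quantile normalization it was 0.20, against 0.01. The 9 cardiomyocyte markers, also bright, had a median of 0.17 on the deposited scale. On the same arrays 4 of 10 fibroblast markers fell and 1 of 9 cardiomyocyte markers rose, and their part in these results was not tested.

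Hspb3 encodes a muscle protein that forms a complex with the product of Hspb2. Its signal was 12.77 and 12.63 on the phenylephrine arrays, against 11.65 and 11.45 on the control arrays. Both phenylephrine arrays lay far above both controls, the widest gap among the 7 genes. The difference was 1.15 ± 0.13 log2 (SE, n = 2 per group; limma adjusted p = 0.00451).

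Hspb6 encodes Hsp20, a chaperone that protein kinase A phosphorylates in heart muscle downstream of β-adrenergic signals. Its signal was 13.54 and 13.41 on the phenylephrine arrays, against 12.63 and 12.60 on the control arrays. The groups were again well apart, and replicates differed by less than the gap between groups. The difference was 0.86 ± 0.10 log2 (SE, n = 2 per group; limma adjusted p = 0.00546). With each of the 4 arrays left out in turn, the differences stayed at 1.05 to 1.25 for Hspb3 and 0.80 to 0.92 for Hspb6.

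Hspb2, the partner of Hspb3 in muscle, had 12.87 and 12.69 on the phenylephrine arrays, against 12.44 and 12.32 on the control arrays. Its difference of 0.40 ± 0.12 had an adjusted p of 0.12 in limma. Hspb2 lies beside Cryab in the rat RefSeq annotation, where the 2 gene models overlap. Cryab encodes αB-crystallin, which binds desmin and titin, and it had 14.51 and 14.70 under phenylephrine, against 14.37 and 14.26 in control cells. Its difference of 0.29 ± 0.11 was smaller than that of its neighbour and had a limma adjusted p of 0.245.

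Hspb1 encodes Hsp27 (Hsp25 in rodents), which acts on actin filaments and is phosphorylated downstream of the kinase p38. Its signal was 13.92 and 13.91 with phenylephrine, against 13.61 and 13.55 without treatment, a difference of 0.33 ± 0.11 (limma adjusted p = 0.157). Hspb7, a cardiovascular member that binds filamin C, had 14.01 and 14.17, against 13.74 on both control arrays, a difference of 0.35 ± 0.11 (limma adjusted p = 0.17). Hspb8, which works with the cochaperone Bag3, had 12.54 and 12.39 with phenylephrine, against 12.36 and 12.20 in control cells. Its difference of 0.18 ± 0.12 was the smallest of the 7 genes, with a limma adjusted p of 0.509. It was 0.11 without control replicate 2 or without phenylephrine replicate 1, and 0.26 without phenylephrine replicate 2, where that of Cryab, at 0.19, was smaller.

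In all 7 genes both phenylephrine arrays were above both control arrays, which held for 21.5% of all probe sets. With the arrays quantile normalized, all 7 genes kept this order, where the share of all probe sets was 23.7%. Hspb2 (0.34, limma adjusted p = 0.00644) and Cryab (0.15, limma adjusted p = 0.0356) then also passed. Calls over all probe sets went from 1117 to 2790 with this scaling. That scaling lowered the differences of the brightest genes by more than 1.5 times, to 0.19 for Hspb1, 0.15 for Cryab and 0.20 for Hspb7. It left Hspb3 at 1.10 and Hspb6 at 0.79.

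**Figure D1:**
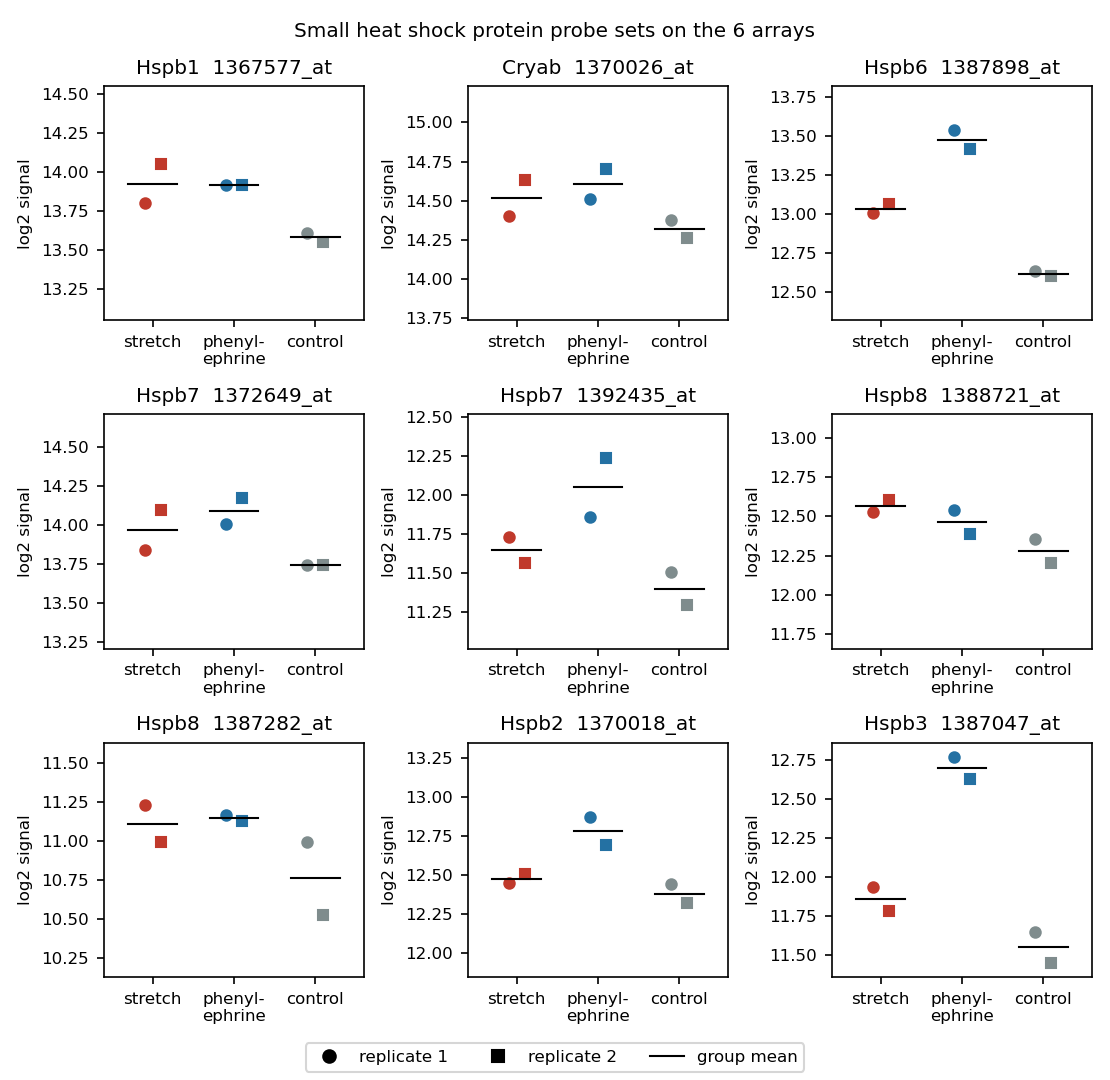
Log2 signal of the 9 probe sets (vertical axis, all panels spanning 1.5 log2) on the stretch, phenylephrine and control arrays, with circles for replicate 1, squares for replicate 2 and a line for the group mean. The phenylephrine arrays of Hspb3 (12.77 and 12.63) and Hspb6 (13.54 and 13.41) stand above both other groups, and the 2 stretch arrays of Hspb1 (13.80 and 14.05) lie on either side of its phenylephrine arrays.

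The mechanical stimulus was read by setting stretch arrays against control arrays. None of the 7 genes passed the threshold (0 rose and 0 fell in limma), where 0.306% of all probe sets rose and 0.0387% fell. All 7 differences were positive, from 0.09 for Hspb2 to 0.42 for Hspb6, with a median of 0.29 against 0.01 over all probe sets. After quantile normalization the median was 0.24, against -0.01. At an unadjusted limma p under 0.05 there were 4 of the 7 genes, Hspb1, Hspb6, Hspb8 and Hspb3, where 5.54% of all probe sets met that limit.

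Hspb6 had the largest difference here. Its signal was 13.01 and 13.06 on the stretch arrays, against 12.63 and 12.60 on the control arrays. The groups did not overlap and the replicates were close, yet the difference of 0.42 ± 0.10 (a 95% interval of 0.18 to 0.65) had a limma adjusted p of 0.285. It passed after quantile normalization, at 0.38 with a limma adjusted p of 0.0195. Calls over all probe sets then went from 107 to 386.

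For Hspb1 the signal was 13.80 and 14.05 under stretch, against 13.61 and 13.55 in control cells. The 2 stretch arrays lay further apart than the lower of them lay from the nearest control, and the difference of 0.34 ± 0.11 had a limma adjusted p of 0.538. It was 0.22 without stretch replicate 2 and 0.47 without stretch replicate 1. Cryab had 14.40 and 14.63 under stretch, against 14.37 and 14.26 in control cells, a difference of 0.20 ± 0.11. Hspb7 had 13.84 and 14.09 under stretch, against 13.74 on both control arrays, a difference of 0.22 ± 0.11. In these 3 bright genes stretch replicate 2 was the higher array by 0.23 to 0.26 log2, so their values depend much on which stretch array is kept. This order was not particular to them. The 9 bright cardiomyocyte markers had a list mean of 14.04 on stretch replicate 1 and 14.22 on stretch replicate 2. Cryab differed by 0.08 without stretch replicate 2 and by 0.31 without stretch replicate 1, and Hspb7 by 0.10 and 0.35 in the same order.

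Hspb8 had 12.53 and 12.60 on the stretch arrays, against 12.36 and 12.20 on the control arrays, a difference of 0.29 ± 0.12. Its difference with phenylephrine was 0.18, and that between the stimuli did not pass. Hspb3 had 11.94 and 11.78 under stretch, against 11.65 and 11.45 in control cells, a difference of 0.31 ± 0.13 with a 95% interval of 0.02 to 0.60. Hspb2 had 12.45 and 12.50, against 12.44 and 12.32, so its lower stretch array was level with the higher control (difference 0.09 ± 0.12). That difference was 0.03 without control replicate 2 and 0.16 without control replicate 1. Counting that near tie, both stretch arrays were above both controls in 7 of 7 genes on the brighter probe sets. Of all probe sets, 19.4% showed this order. After quantile normalization 6 of 7 genes did, where the share of all probe sets was 18%, and the differences of Cryab (0.13), Hspb7 (0.12) and Hspb2 (0.05) were more than 1.5 times smaller. As the 2 comparisons share the control arrays, an equal sign in both is not counted as a result.

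**Figure D2:**
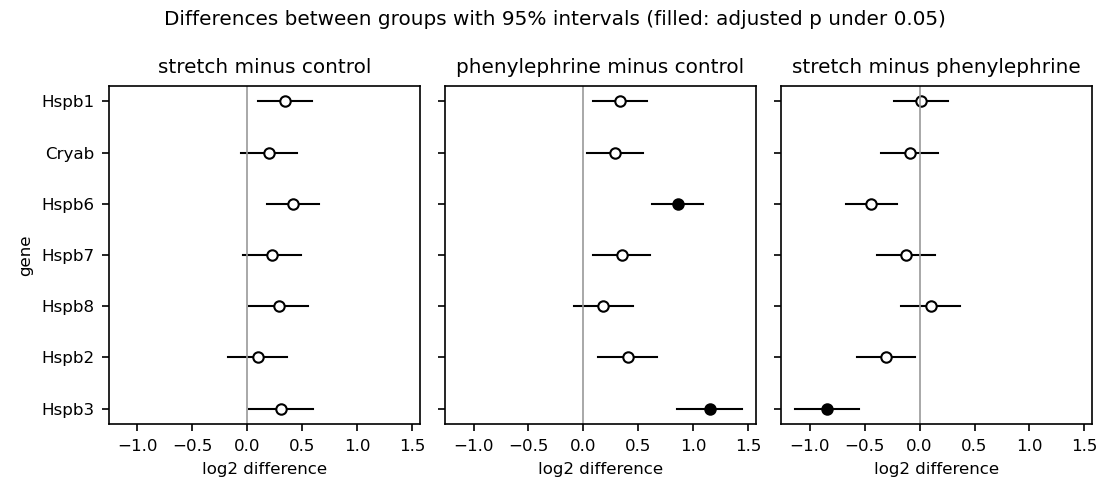
Difference of group means in log2 (horizontal axis) with 95% intervals from the limma fit for the 7 genes, for stretch minus control, phenylephrine minus control and stretch minus phenylephrine, with filled points for adjusted p under 0.05. Filled points are Hspb3 (1.15) and Hspb6 (0.86) for phenylephrine minus control and Hspb3 (-0.84) for stretch minus phenylephrine, and no point is filled for stretch minus control.

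Stretch arrays were also set directly against phenylephrine arrays, where a difference in stimulus and one in handling cannot be told apart. Hspb3 was lower with stretch, 1.79-fold, and was the one gene of the 7 past the threshold, where 0.612% of all probe sets were lower and 0.718% higher in limma. Its signal was 11.94 and 11.78 on the stretch arrays, against 12.77 and 12.63 on the phenylephrine arrays. The groups lay 0.69 apart at their nearest arrays, and the difference was -0.84 ± 0.13 (SE, n = 2 per group; limma adjusted p = 0.0266). With any one of the 4 arrays left out the difference stayed between -0.92 and -0.76, but the limma adjusted p rose above the threshold, to between 0.0567 and 0.231.

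Hspb6 had 13.01 and 13.06 with stretch, against 13.54 and 13.41 with phenylephrine, a difference of -0.44 ± 0.10. Its groups did not overlap either, and its limma adjusted p of 0.0975 missed the threshold. It passed after quantile normalization (limma adjusted p = 0.00665) and with no mean-variance trend (limma adjusted p = 0.0434). Hspb2 had 12.45 and 12.50 with stretch, against 12.87 and 12.69 with phenylephrine, a difference of -0.31 ± 0.12 (limma adjusted p = 0.325, and 0.0203 after quantile normalization). These 3 genes were the ones whose stretch arrays both lay below both phenylephrine arrays, an order held by 17.2% of all probe sets.

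In the other 4 genes the arrays of both stimuli overlapped on the brighter probe set. The difference was 0.01 for Hspb1 (95% interval -0.24 to 0.25), -0.09 for Cryab (-0.35 to 0.16), -0.12 for Hspb7 (-0.39 to 0.14) and 0.10 for Hspb8 (-0.16 to 0.37). The intervals reach from -0.39 to 0.37, so the data do not show that these genes were alike in the stretch and phenylephrine groups. The sign turned with single arrays for 3 of them: Hspb1 had -0.11 without stretch replicate 2, while without stretch replicate 1 Cryab had 0.02 and Hspb7 0.0034, and Cryab had 0.0036 without phenylephrine replicate 2.

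The second probe sets of Hspb7 and Hspb8 gave a further reading of those genes. For Hspb7, probe set 1392435_at had 11.73 and 11.57 under stretch, 11.86 and 12.24 under phenylephrine, and 11.51 and 11.30 in control cells. Its phenylephrine difference from control, 0.65 ± 0.16 (limma adjusted p = 0.074), was larger than the 0.35 of the brighter probe set 1372649_at, and its stretch difference was nearly the same (0.25 and 0.22). Both of its stretch arrays lay below both phenylephrine arrays, unlike those of the brighter probe set, at a difference of -0.40 ± 0.16 (limma adjusted p = 0.348) against -0.12. For Hspb8, probe set 1387282_at had 11.23 and 10.99 under stretch, 11.17 and 11.13 under phenylephrine, and 11.00 and 10.53 in control cells. Its lower stretch array was level with the higher control, a near tie that counts as overlap, whereas the brighter probe set showed none. Its control arrays were the most uneven of all 9 probe sets, and its differences of 0.35 ± 0.17 for stretch and 0.38 ± 0.17 for phenylephrine did not pass in limma. Stretch against phenylephrine had a difference of -0.03 ± 0.17 on this probe set, against 0.10 on the brighter probe set 1388721_at. Neither second probe set passed in any of the 3 comparisons.

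The promoters of the 2 genes that rose with phenylephrine, and of Hspb1, are shown to set the elements before their starts beside their unequal differences. RefSeq windows of build GRCr8 matched 5 of the 7 genes, Hspb1, Hspb3, Hspb6, Hspb7 and Hspb8. The 250 bases before the annotated start are printed in the direction of the gene: Hspb3 is chr2:47029166-47029415 on the minus strand, Hspb6 is chr1:94934122-94934371 on the plus strand and Hspb1 is chr12:26432302-26432551 on the minus strand. Capitals mark matches to the heat shock factor motif of 2 units (GAANNTTC or TTCNNGAA, each its own reverse complement) or to the motif of MEF2, a muscle transcription factor.
Hspb3: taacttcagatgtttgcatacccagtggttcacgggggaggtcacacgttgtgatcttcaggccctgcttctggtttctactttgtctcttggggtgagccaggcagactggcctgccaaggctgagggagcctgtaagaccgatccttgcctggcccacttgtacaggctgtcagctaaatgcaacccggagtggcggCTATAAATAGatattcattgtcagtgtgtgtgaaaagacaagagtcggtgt
Hspb6: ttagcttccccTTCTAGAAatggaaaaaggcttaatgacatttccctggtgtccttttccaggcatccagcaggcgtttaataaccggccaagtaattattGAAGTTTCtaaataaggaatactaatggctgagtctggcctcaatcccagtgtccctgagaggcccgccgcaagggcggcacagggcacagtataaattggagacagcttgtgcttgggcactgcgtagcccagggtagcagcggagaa
Hspb1: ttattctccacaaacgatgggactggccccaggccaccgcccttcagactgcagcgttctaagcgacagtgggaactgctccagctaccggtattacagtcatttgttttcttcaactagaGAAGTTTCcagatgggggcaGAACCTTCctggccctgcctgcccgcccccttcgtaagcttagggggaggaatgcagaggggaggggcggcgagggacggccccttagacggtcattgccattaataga

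Hspb3 held 1 MEF2 motif, CTATAAATAG, from base -51 to base -42 before the start. Within it lie the letters of a TATA box, TATAAA on the gene's strand. These letters were in 3 of 5 member windows, those of Hspb3, Hspb6 and Hspb7, and in 8.06% of all windows. Hspb7 held another MEF2 motif, CTAAATTTAG, from base -96 to base -87. The MEF2 motif was thus in 2 of 5 member windows and in 0.523% of 33469 rat windows of the same length. The 2-unit heat shock factor motif was in 3 of 5 windows, those of Hspb1, Hspb6 and Hspb8, and in 13.5% of all windows. Hspb6 had 2 such matches, TTCTAGAA and GAAGTTTC, Hspb1 had 2, GAAGTTTC and GAACCTTC, and Hspb8 had 1, GAAGTTTC, from base -23 to base -16. The longer motif of 3 heat shock units, on either strand, was in 0 of 5 windows and in 0.663% of all, and the CArG box of the factor SRF in 0 of 5 and in 1.5%. These matches describe letters in the windows and not bound sites. The phenylephrine differences of the genes with the heat shock motif were 0.86 for Hspb6, 0.33 for Hspb1 and 0.18 for Hspb8, and those with the MEF2 motif had 1.15 for Hspb3 and 0.35 for Hspb7.

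Of the other family genes, Cryaa encodes αA-crystallin of the eye lens, and Hspb9 and Odf1 encode testis proteins. Their probe sets had mean signals over the 6 arrays of 8.27, 8.18 and 7.54, below the array medians. None of these 3 genes passed in either comparison with control (0 at an unadjusted limma p under 0.05), and their differences lay between -0.03 and 0.12.

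Heat shock factors and the chaperones they control were read as a list, since heat shock factor also induces some small heat shock proteins. Hspa1a, the inducible Hsp70, was the 1 gene of 17 measured that rose with stretch, and 0 fell. Its signal was 11.59 and 11.58 under stretch, 9.36 and 9.29 under phenylephrine, and 8.71 and 8.76 in control cells, so the stretch arrays stood far above all others. The stretch difference from control was 2.85 ± 0.10 (limma adjusted p = 4.31e-05), while no small heat shock protein exceeded 0.42 in the same comparison. Hspa1a was also the 1 gene of 17 that rose with phenylephrine (0.59 ± 0.10; limma adjusted p = 0.0188), below Hspb3 and Hspb6 there. The probe set may also read the near-identical copy Hspa1b. The list median was 0.16 for stretch and 0.08 for phenylephrine, and the genes of the factors themselves did not pass, with Hsf1 at 0.16 ± 0.11 and -0.24 ± 0.11 and Hsf2 at 0.23 ± 0.15 and 0.02 ± 0.15.

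Chaperone-assisted selective autophagy is the route by which Hspb8 and Bag3 clear damaged filamin from the Z-disc. Of 9 genes measured, 0 passed against control in limma with either stimulus (2 with stretch and 4 with phenylephrine at an unadjusted p under 0.05). With stretch 5.54% of all probe sets met that limit. The share with phenylephrine was not computed, so its count of 4 cannot be weighed. The list median was 0.05 with stretch and -0.05 with phenylephrine, against 0.01 over all probe sets in both. Bag3 itself had 0.04 ± 0.11 with stretch and -0.14 ± 0.11 with phenylephrine. The largest differences were those of the filamin gene Flnc with stretch (0.64 ± 0.12; limma adjusted p = 0.109) and of Synpo2, which links Bag3 to autophagosome formation, with phenylephrine (0.46 ± 0.13; limma adjusted p = 0.117). In the direct comparison 1 gene was higher with stretch, the autophagy receptor gene Sqstm1 (0.90 ± 0.10; limma adjusted p = 0.00969), at 13.45 and 13.51 with stretch against 12.60 and 12.55 with phenylephrine. Its control arrays lay between, at 13.06 and 12.92. Neither difference from control passed, at 0.49 ± 0.10 with stretch and -0.41 ± 0.10 with phenylephrine.

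Among 11 measured kinases that phosphorylate small heat shock proteins or act above them, 1 rose and 1 fell with phenylephrine. Map2k3 and Map2k6 both encode kinases that activate p38, and they went opposite ways: Map2k3 rose by 0.84 ± 0.12 (limma adjusted p = 0.0126) and Map2k6 fell by 0.44 ± 0.08 (limma adjusted p = 0.0239). With stretch none of the 11 did in limma (0 calls, and 2 genes had an unadjusted p under 0.05), and Map2k3 had 0.78 ± 0.12 (limma adjusted p = 0.0604). The list median was -0.03 with stretch and -0.03 with phenylephrine. Mapkapk2, which phosphorylates Hspb1, had -0.03 ± 0.13 with stretch and 0.27 ± 0.13 with phenylephrine.

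Among 12 measured filament and sarcomere proteins that small heat shock proteins bind or that share their filaments, 2 rose with phenylephrine and 0 fell. These were Synm, an intermediate filament protein that joins desmin filaments (0.65 ± 0.08; limma adjusted p = 0.00742), and the tubulin gene Tubb6 (1.27 ± 0.12; limma adjusted p = 0.00322). Desmin itself, Des, had 0.42 ± 0.11 (limma adjusted p = 0.0847). With stretch 1 of 12 rose, Tubb6 (0.87 ± 0.12; limma adjusted p = 0.0398), and 0 fell. The list median was 0.02 with stretch and 0.13 with phenylephrine. Synm was also the 1 gene of this list that differed between the stretch and phenylephrine groups. It had 8.93 and 8.89 with stretch against 9.43 and 9.34 with phenylephrine (-0.47 ± 0.08, limma adjusted p = 0.0402).

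**Figure D3:**
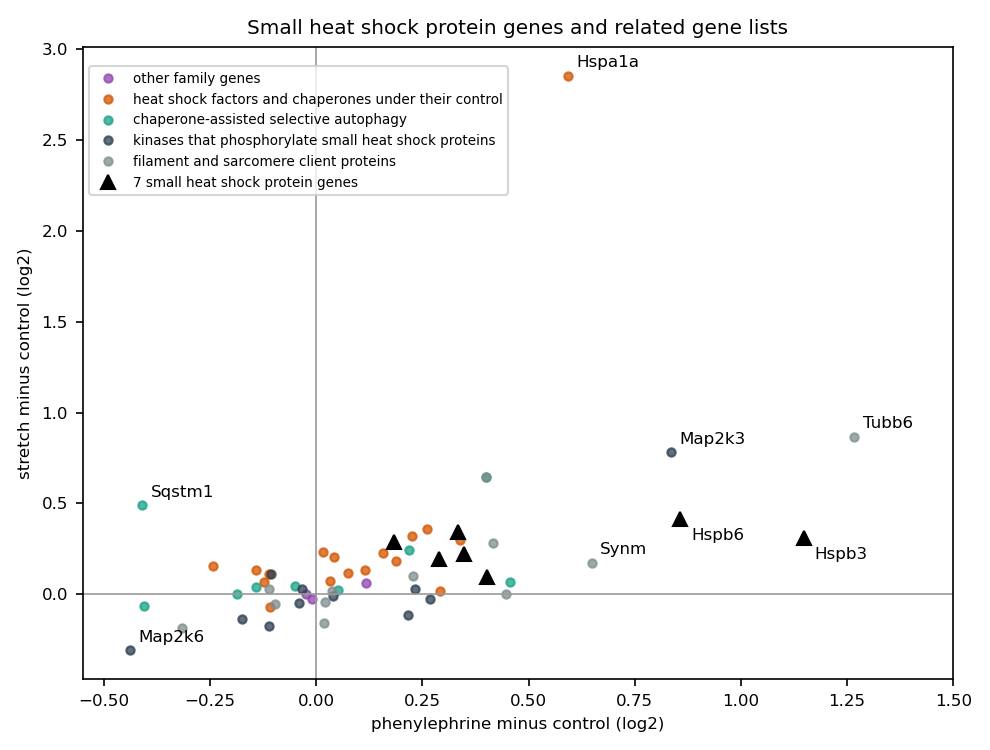
Difference from control in log2 under phenylephrine (horizontal axis) and under stretch (vertical axis) for the 7 small heat shock protein genes (triangles) and the genes of 5 related lists (coloured circles). Hspa1a stands alone at the top (0.59 and 2.85), while Hspb3 (1.15 and 0.31) and Hspb6 (0.86 and 0.42) lie to the right among the genes with larger phenylephrine than stretch values; both axes use the same control arrays.

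Cell type markers were read on the same arrays. The 9 measured cardiomyocyte markers were bright throughout, with a list mean of 14.04 and 14.22 on the stretch arrays, 14.25 and 14.36 on the phenylephrine arrays, and 14.15 and 14.02 on the control arrays. Of these markers 1 rose with phenylephrine, Nppa, with a list median of 0.17, and 0 passed with stretch (2 at an unadjusted limma p under 0.05). The 10 fibroblast markers were also present, with a list mean of 11.14 and 11.12 under stretch, 11.01 and 10.89 under phenylephrine, and 11.43 and 11.40 in control cells. Of these 4 fell with phenylephrine, Dpt, Col3a1, Postn and Pdgfra, and all 10 had negative differences, with a median of -0.53. With stretch the list median was -0.23, and none passed in limma (0 of 10, and 4 had an unadjusted p under 0.05). The probe sets of all 10 had mean signals above the median of all probe sets. In pooled cell RNA, fewer cells of a type and less RNA per cell cannot be told apart.

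Smooth muscle markers had a list mean of 9.67 and 9.64 under stretch, 9.88 and 9.75 under phenylephrine, and 9.32 and 9.30 in control cells, and 2 of 6 rose with phenylephrine, Cnn1 and Acta2, against 1 of 6 with stretch, Cnn1. The other 4 smooth muscle and pericyte markers had differences between -0.17 and -0.03 with phenylephrine that did not pass, so the list median there was -0.08 and the higher mean rests on Cnn1 (2.55) and Acta2 (0.96). With stretch the list median was 0.19, with 4 of 6 above 0. Hspb2 and Hspb3 are also skeletal muscle genes, and the skeletal muscle markers had a list mean between 8.61 and 8.68 on all arrays, with 4 of 5 below the median signal of all probe sets and Myh1 the exception at 13.2. Endothelial (8.18 to 8.52), macrophage (8.27 to 8.52), Schwann (8.37 to 8.51) and mesothelial (8.85 to 9.02) list means are given as ranges over the 6 arrays. The lowest arrays of the endothelial and macrophage lists were those with phenylephrine, where 1 of 5 and 1 of 6 markers fell, Kdr and Cd68.

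**Figure D4:**
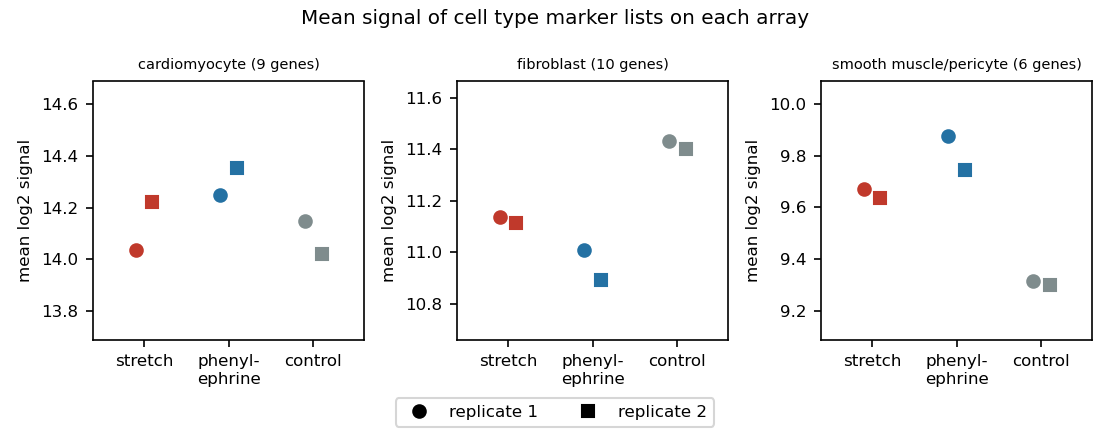
Mean log2 signal (vertical axis, each panel spanning 1 log2) of the cardiomyocyte, fibroblast and smooth muscle marker lists on the stretch, phenylephrine and control arrays, with circles for replicate 1 and squares for replicate 2. The fibroblast mean was lowest with phenylephrine (11.01 and 10.89) and highest in control cells (11.43 and 11.40), and the smooth muscle mean was lowest in control cells, a pattern that rests for phenylephrine on Cnn1 and Acta2, as the other 4 of its 6 markers had differences below 0.

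The genes most like Hspb6 and Hspb3 over the 6 arrays were sought among 1184 named probe sets at or above the median signal whose group means spanned at least 0.5 log2. Hspb6 was closest to Eno2, a glycolytic enolase, Slc16a3, a lactate transporter, and Fads3, a desaturase-like enzyme, with Pearson r of 0.998, 0.997 and 0.997. Eno2 had 11.17 and 11.21 under stretch, 12.22 and 11.88 under phenylephrine, and 10.35 and 10.23 in control cells, the same order of groups with wider steps. Hspb3 was closest to Dhcr7, an enzyme of a final step of cholesterol synthesis, Ostc, a subunit of the oligosaccharyltransferase complex, and Synm, each with r = 0.997. Dhcr7 had 10.13 and 10.00 under stretch, 11.02 and 10.86 under phenylephrine, and 9.83 and 9.75 in control cells, so it too stood apart mainly with phenylephrine. These values describe likeness over 6 arrays that form 3 groups, where many genes with the same order of groups reach a high r.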

How the data were processed

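RNA of cultured rat heart myocytes was measured on 6 Affymetrix arrays in 3 groups of 2, taken from the sample titles. The authors deposited 1 value per probe set and array, taken as log2 because values ran from 5.80 to 15.2; how probe sets were summarised, corrected for background and normalized is not stated in the labels, and the deposited scale was kept. Per the labels' protocols, pooled RNA was amplified by in vitro transcription. Of 31099 probe sets, 57 array controls were left out.

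Genes came from the platform annotation of 2016, which gave 20826 probe sets 1 symbol, 436 several and 9780 none, and 20758 matched the rat RefSeq table. The probe set of highest mean stood for a gene, and probe sets with several symbols were not named. Group means were compared with limma 3.58.1 in R 4.3.3 (lmFit, then eBayes with a mean-variance trend; 3 residual and 4.8 prior degrees of freedom), two-sided, with Benjamini-Hochberg adjustment. Exact permutation of 2 against 2 arrays can give no p below 0.333 and was not used. The fit was also run on simulated data with independent noise on each array, so it was not tested under dependence between arrays. Precision is limited by the number of arrays.

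The member genes, the 5 gene lists and the 8 marker lists were chosen with earlier results of these data known. All members are named, and of each list the genes past the threshold (at most 4) or else the one with the largest difference; other list genes (Bag3, Hsf1, Hsf2, Mapkapk2 and Des) were added after their values were seen. Motifs were searched in RefSeq windows from 250 bases before the start. Alternatives were quantile normalization, no trend, a filter at the 25th percentile of means, fits of 2 groups only, a replicate block, averaged probe sets, and each array left out.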

Additional observations from a re-analysis of the deposited data

How the results depend on the processing

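Of 210 values of single member genes under the alternatives, 194 kept their direction and their side of the threshold, 8 passed only under the alternative, 4 no longer passed and 4 turned sign. The rises of Hspb3 and Hspb6 with phenylephrine passed under all alternatives tried, but only just without control replicate 2. All differences of the 7 genes from control stayed positive. The 4 lost calls were those of Hspb3 in stretch against phenylephrine with 1 array left out, where fewer arrays are fitted. The sign turned in the same comparison for Cryab (0.0036 without phenylephrine replicate 2), and its values with 1 array left out ran from -0.207 to 0.0239. Those of Hspb7 ran from -0.252 to 0.0034 and turned sign without stretch replicate 1, and those of Hspb1 ran from -0.113 to 0.132 and turned sign without stretch replicate 2. Member genes called were 1 for stretch against control and 4 for phenylephrine against control with quantile normalization. For stretch against phenylephrine they were 3 with quantile normalization, 2 with no trend, and 0 with any array left out, against 1. With 1 array left out they were 0 for stretch against control and 2 for phenylephrine against control.

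Over all probe sets, 107 passed for stretch against control, 1117 for phenylephrine against control and 413 for stretch against phenylephrine. With quantile normalization 386 (280 higher, 106 lower, against 95 and 12), 2790 and 1527 passed, and the cause was not tested. Fitting only the groups compared gave 661 for phenylephrine against control and 230 for stretch against phenylephrine. Leaving out 1 array gave 26 to 47, 189 to 1249 and 51 to 473 in the 3 comparisons. A lone array in a group was then assumed to vary like the others.

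The replicate block gave 1028, 5384 and 3734 probe sets, and 0, 3 and 2 member genes, adding Hspb2 for phenylephrine against control (limma adjusted p = 0.0171) and Hspb6 for stretch against phenylephrine (limma adjusted p = 0.0163). Deviations of arrays with equal numbers correlated at 0.487 to 0.673 across probe sets, but with 2 arrays a group this does not establish a pairing, and the labels state none. The brightness of the probe sets limits how far folds can be read.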
